A study of Tetranychus urticae with 24 samples.

Results

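Diethyl maleate (DEM) was compared with formulation only (FORM) in adult females of the two-spotted spider mite, *Tetranychus urticae*. The comparison took every library labelled DEM and every library labelled FORM, 4 of each, which are 8 of the 24 RNA-seq libraries of the series, and covered the 12736 genes with enough reads. All mites were adult females of the strain JP-R, 3 to 5 days old when placed on bean leaf discs, and RNA came from complete animals. Mites of the DEM group were sprayed with 2000 ppm DEM in N,N-dimethylformamide and emulsifier W diluted 100-fold with water, and those of the FORM group with the same mixture lacking DEM. Both were collected 24 h later. Unsprayed mites (CON, 4 libraries) served as a second control.

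JP-R is a single laboratory strain that resists the acaricides cyenopyrafen and cyflumetofen. It was reared on beans sprayed with 200 mg of cyenopyrafen per litre, with a week free of it before the experiment, so that the DEM and FORM mites share this selection. RNA of about 100 mites that were alive at 24 h went into each library. Each treatment drew on 20 leaf discs with about 600 animals in all, and whether its replicates were sprayed separately is not stated in the labels. The p-values therefore measure the spread between pools.

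DEM reacts with glutathione (GSH), the tripeptide that cells use to trap electrophiles and oxidants, and so lowers its level. Glutathione S-transferases (GSTs) join GSH to toxicants. They work beside the cytochrome P450 monooxygenases (P450s) and reductases, which introduce or change a reactive group, and beside the UDP-glycosyltransferases (UGTs), which attach a sugar. ATP-binding cassette (ABC) and major facilitator superfamily (MFS) transporters move the products or their precursors across membranes. In mammals, electrophiles such as DEM release the transcription factor Nrf2 from its inhibitor, and Nrf2 then raises GST and antioxidant genes. CncC is the arthropod ortholog of Nrf2.

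The DEM libraries held 14962473 to 18198286 gene counts and the FORM libraries 14573720 to 17633311. Replicate 1 of DEM stood apart. It deviated from the mean of the other DEM libraries by 0.392 (root mean square over genes, log2 CPM), against 0.246 to 0.267 for replicates 2 to 4 of DEM and 0.256 to 0.291 for the FORM libraries. In it 41 genes lay at least 2-fold outside all 7 other libraries, 24 above and 17 below, against 1 to 5 genes in replicates 2 to 4 of DEM and 7 to 12 in the FORM libraries. Only 2 of the 41 were among the genes called below. Its most abundant gene, tetur39g00810, took 7.69% of the counts, against 5.00 to 5.32% in the other DEM libraries and 5.21 to 5.81% with FORM. The yolk genes (2 vitellogenins, whose summed level was 778 to 1199 CPM with DEM and 827 to 1035 CPM with FORM) and the germline genes (3 genes, 296 to 345 CPM with DEM and 273 to 295 CPM with FORM) were present in every library. The summed level of 4 cuticle protein genes was 179.8 CPM in replicate 1 of DEM, 61.8 to 75.8 CPM in replicates 2 to 4 of DEM and 65.1 to 108 CPM with FORM. CPM are counts scaled to the library total, itself adjusted by the trimmed mean of M values (TMM).

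A gene was called when its Benjamini-Hochberg adjusted p (edgeR's quasi-likelihood test) was under 0.05 and its fold change (FC) at least 1.5 in either direction. With DEM, 277 genes were called, 2.17% of those tested. Of these, 212 (1.66%) were higher and 65 (0.51%) were lower than with FORM. Across all genes the median log2 FC was 0.0035, and 50.6% of the genes had a positive one. The change was modest for most genes. The median FC was 1.75 for the genes called higher and −1.80 for those called lower, and 62 of the higher and 23 of the lower genes reached a 2-fold difference. In 257 of the 277 genes (198 higher, 59 lower) the DEM libraries did not overlap the FORM libraries. The same was seen in 11.7% of all genes tested for higher and in 8.75% for lower levels.

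**Figure D1:**
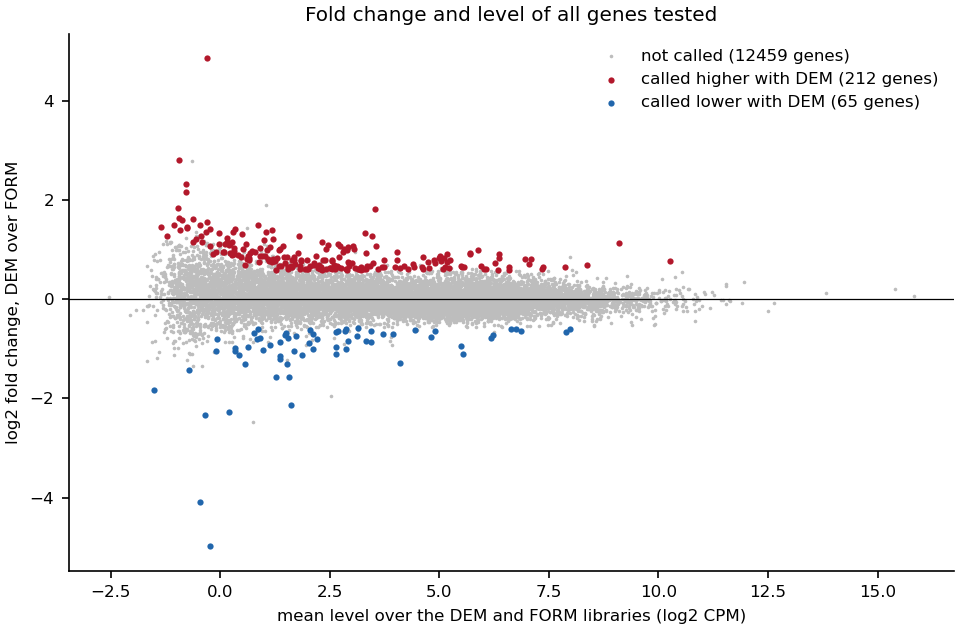
Each point is 1 of the 12736 genes tested. The x axis gives the mean level over the 8 libraries in log2 CPM and the y axis the log2 FC of DEM over FORM. The 212 genes called higher (red) and the 65 called lower (blue) lie mostly within a log2 FC of 2 of zero, and the 3 farthest points are a hormone-like gene above and 2 neuropeptide precursor genes below.

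The genes called were mostly of low level. Their median level was 4.48 CPM for the higher and 4.06 CPM for the lower genes, against 23.4 CPM over all genes tested. Among genes at 1 to 10 CPM, 3.39% were called higher and 1.09% lower, whereas among genes over 100 CPM 0.411% were called higher and 0.183% lower. Names and roles came from the study's descriptions, which cover 372 of the 12736 genes tested. They cover 69 of the 212 genes called higher and 30 of the 65 called lower. The other 178 genes called have no description and are given as counts only, apart from single genes named beside a result. They make up 7 of the 10 highest log2 FC among genes called without overlap (1.56 to 2.79) and 3 of the 10 lowest (−2.33 to −1.31). Genes were grouped in 22 lists by words in these descriptions. A list holds described genes only, so its counts need not cover a whole gene family. The study picked most of the listed genes for its tables from these same libraries, so a list's direction is not independent evidence. The share called in a list is set beside the share of all genes tested as a description only. Of the 372 described genes 69 were called higher and 30 lower, more often than genes in general. A list can therefore exceed the share of all genes without differing from described genes as a whole.

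Genes of hormones and neuropeptides showed the largest differences in both directions. Neuropeptides are short signalling molecules cut from precursors in nerve cells, and neuropeptide F is known in insects for its role in feeding. The pancreatic hormone-like gene tetur04g09491 belongs by its description to the same domain family as neuropeptide F and vertebrate neuropeptide Y. It had 1.76, 1.05, 1.96 and 1.52 CPM in the DEM libraries, against 0, 0.0577, 0.0682 and 0.0698 CPM in the FORM libraries. Every DEM library was above every FORM library. The DEM libraries held 106 counts in sum and the FORM libraries 3, a ratio of 33.8 after scaling to library size (95% exact counting interval 11.3 to 166). Conversely, the precursor gene tetur10g02190 had 0, 0.0659, 0.109 and 0 CPM with DEM, against 1.78, 2.25, 1.36 and 1.19 CPM with FORM. In sum it had 3 counts with DEM and 107 with FORM, a ratio of 0.0268 (0.00544 to 0.0805). A neuropeptide F precursor gene, tetur26g01200, followed the same course with 0, 0.132, 0.0545 and 0.112 CPM in DEM mites and 1.55, 1.79, 1.30 and 0.908 CPM in FORM mites. It had 5 counts with DEM and 90 with FORM, a ratio of 0.0531 (0.0168 to 0.129). These intervals cover counting error only.

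Each of these 3 genes passed the edgeR test (adjusted p = 4.48e-05, 1.94e-05 and 0.000161 in the order given) and kept its call when any single library was left out. DESeq2 gave none of the 3 an adjusted p. The CON libraries lay with FORM, at 0.0562 to 0.184 CPM for the pancreatic hormone-like gene, 1.42 to 2.39 CPM for tetur10g02190 and 1.52 to 2.59 CPM for tetur26g01200. Of the 8 genes of the list, 1 was thus called higher and 2 lower, beside 1.66% and 0.51% of all genes. None of the 8 is in the study's own DEM list. The other 5 genes of the list were not called. The precursor gene tetur10g02210, close to tetur10g02190 in number, had 77.2 to 86.0 CPM with DEM and 76.0 to 88.1 CPM with FORM, and the precursor gene tetur03g08630 had 40.4 to 53.1 CPM with DEM and 56.8 to 64.7 CPM with FORM (FC −1.29, adjusted p = 0.016). Since whole mites were measured, fewer cells of a type and less RNA per cell cannot be told apart in any of these results. The summed level of the 4 neuropeptide precursor genes taken as markers of nervous tissue was 119 to 139 CPM with DEM and 138 to 155 CPM with FORM, both genes called lower among them, and the part of nerve cell number in the result was not tested.

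**Figure D2:**
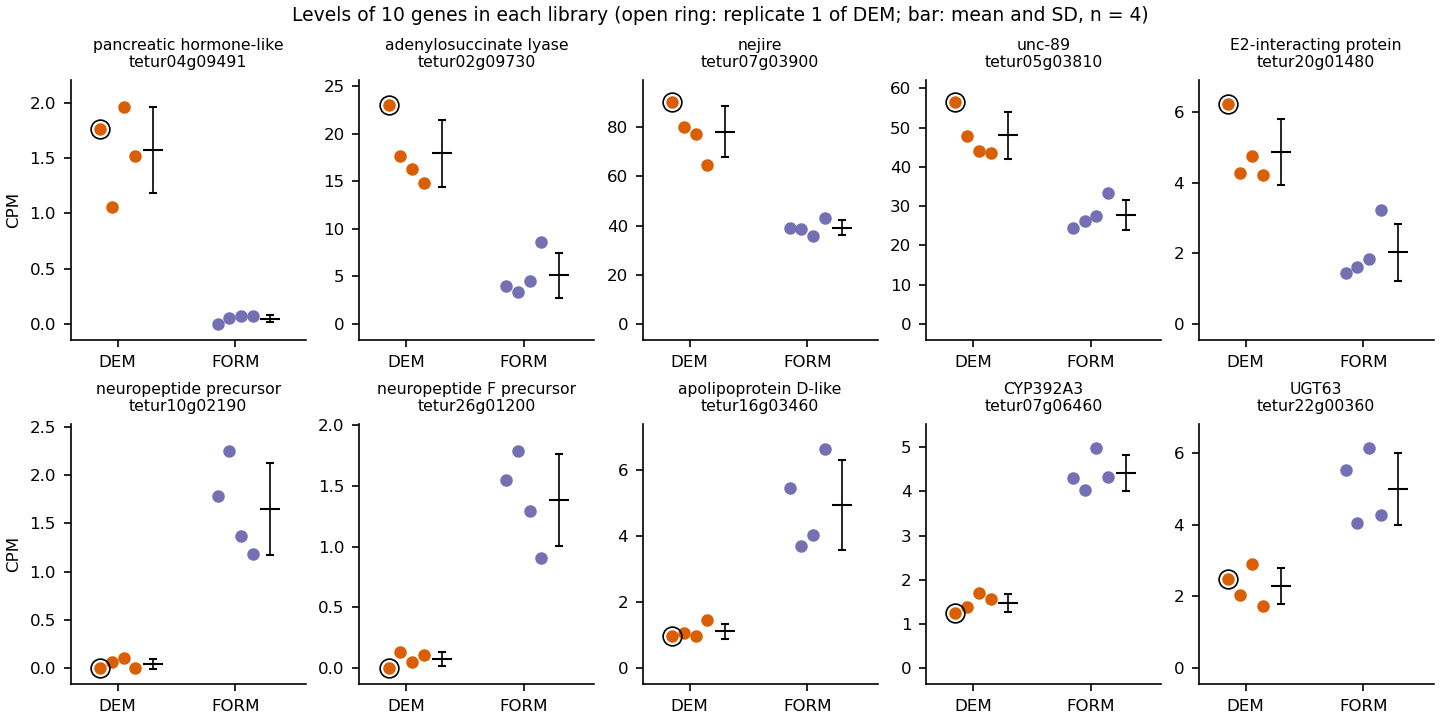
Levels in CPM of 5 genes called higher (upper row) and 5 called lower (lower row) in each of the 4 DEM and 4 FORM libraries. Bars give mean and SD (n = 4) and an open ring marks replicate 1 of DEM. In each panel the DEM libraries lie wholly on one side of the FORM libraries. Of these genes, adenylosuccinate lyase, nejire and unc-89 lost their call without replicate 1 of DEM.

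Genes of signalling and the cytoskeleton were mostly higher with DEM. Of 18 genes, 14 were called higher and none lower, beside 1.66% of all genes called higher. The median log2 FC was 0.78, and 8 genes were called without replicate 1 of DEM and 9 without replicate 3 of FORM. Of the 13 genes in the study's own DEM list all were called, and of the other 5 genes 1 was. A gene described as regulating synaptic membrane exocytosis protein 3 (tetur13g02950), of a family that organises the release of synaptic vesicles, had the highest FC of the list, 2.81. Its levels were 3.20, 2.57, 2.29 and 2.64 CPM with DEM, against 1.09, 0.692, 0.682 and 1.33 CPM with FORM (adjusted p = 0.00629). A gene with a pleckstrin-homology and phosphotyrosine-binding domain (tetur03g08940), domains of adaptor proteins, followed with 3.01, 3.10, 3.54 and 2.19 CPM with DEM, against 0.690, 1.62, 1.23 and 1.12 CPM with FORM. The groups did not overlap in either gene.

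A cystine-knot cytokine gene (tetur01g14780), the fold of many secreted growth factors, had 11.7, 11.99, 11.1 and 9.28 CPM in DEM mites and 4.31, 5.77, 4.71 and 6.29 CPM in FORM mites (FC 2.09, adjusted p = 0.00607). A gene like the receptor Notch (tetur12g01120), which reads contact signals between cells, had 12.7, 11.3, 10.1 and 10.3 CPM with DEM, against 4.94, 5.83, 4.84 and 6.43 CPM with FORM (FC 2.01). These 4 genes kept their call with any library left out, as did 4 others of the list. The 4 others were a Src homology-3 gene (tetur30g00930, FC 2.01), a diacylglycerol kinase (tetur40g00260, 1.90), an ADP-ribosylation factor-like gene (tetur30g02400, 1.74) and the ortholog of still life (tetur18g01800, 1.70).

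Among cytoskeletal genes, the muscle M-line gene unc-89 (tetur05g03810) had 56.5, 47.9, 44.1 and 43.6 CPM with DEM, against 24.4, 26.3, 27.5 and 33.2 CPM with FORM (FC 1.73, adjusted p = 0.0133, and 0.0504 without replicate 1 of DEM). It was the sole muscle marker used, so muscle content and its own regulation cannot be told apart. The motor gene myosin-10 (tetur18g01720) reached 179 to 221 CPM with DEM and 119.8 to 142 CPM with FORM (FC 1.56). One member went the other way without reaching the FC threshold. The dual specificity phosphatase gene tetur14g03350 had 20.1, 18.2, 16.1 and 15.9 CPM with DEM, against 26.0, 22.0, 26.3 and 24.2 CPM with FORM (FC −1.40, adjusted p = 0.00534).

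Regulators of chromatin and transcription made up another group of genes called higher. Of 27 genes, 15 were called higher and none lower, beside 1.66% of all genes called higher. All 27 had a positive log2 FC (median 0.63), and in 23 the DEM libraries lay wholly above the FORM libraries, beside 11.7% of all genes. Of the 12 genes that the study's own DEM list holds, all were called here, and of the other 15 genes 3 were called. The histone methyltransferase homolog of mixed-lineage leukemia 2 (tetur17g01650) had 15.9, 14.3, 14.8 and 11.1 CPM with DEM, against 4.60, 5.42, 5.18 and 7.26 CPM with FORM. Its neighbour in number, an FY-rich gene (tetur17g01640), a domain found in the same methyltransferases, had 41.6, 49.1, 44.6 and 40.5 CPM with DEM, against 22.0, 26.4, 24.5 and 26.6 CPM with FORM. Their FC were 2.505 and 1.77.

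The histone acetyltransferase homolog nejire (tetur07g03900), a coactivator of many transcription factors, had 90.2, 80.2, 77.4 and 64.8 CPM in DEM mites and 38.9, 38.5, 35.9 and 43.2 CPM in FORM mites (log2 FC 1.00 ± 0.23 SE). The homolog of the chromatin remodeller p400 (tetur38g00040) had 117, 90.6, 94.98 and 79.6 CPM with DEM, against 58.4, 57.9, 53.5 and 60.2 CPM with FORM (FC 1.66). Lower in level, the forkhead gene FoxN1/4a (tetur21g02690) had 2.48, 3.75, 4.14 and 2.76 CPM with DEM, against 1.09, 1.33, 1.09 and 1.47 CPM with FORM (FC 2.64), and a basic helix-loop-helix gene (tetur04g05450) 10.8, 8.30, 8.56 and 8.15 CPM with DEM, against 3.74, 4.10, 3.68 and 5.66 CPM with FORM (FC 2.09). In each of these genes the lowest DEM library was above the highest FORM library.

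The number of calls in this list moved with single libraries. Without replicate 1 of DEM 5 of the 15 genes were called, with a median log2 FC of the list of 0.61. Leaving out replicate 3 of FORM gave 5 and leaving out its replicate 1 gave 8, while the DEM and FORM libraries alone, without replicate 1 of DEM, gave 16. For nejire the FC was 1.88 without that library, with an adjusted p of 0.0522 against 0.0143 with all libraries, and for mixed-lineage leukemia 2 it was 2.38 (0.0578 against 0.0179). The genes called with any single library left out were the homeobox gene cut (tetur29g01500), p400, a C2H2 zinc finger gene (tetur03g04660) and a winged helix gene (tetur03g03340), with FC of 1.93, 1.66, 1.91 and 1.73. The zinc finger gene had 69.7, 69.3, 73.0 and 61.6 CPM with DEM, against 32.5, 37.0, 33.2 and 40.6 CPM with FORM. Among members not called, the homolog of glass (tetur07g01570), a regulator of photoreceptor genes in *Drosophila*, had 24.2 to 29.3 CPM with DEM and 21.4 to 26.6 CPM with FORM (FC 1.09, adjusted p = 0.419).

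RNA-binding and nucleolar genes, which serve splicing, translation and ribosome assembly, had 5 of 12 members called higher and none lower (median log2 FC 0.55), beside 1.66% of all genes called higher. The 5 are those of the study's own DEM list, and none of the other 7 was called. The number called was 1 without replicate 1 of DEM, 2 without replicate 2 or 3 of DEM, 7 without replicate 4 of DEM, and 2, 2 and 0 when replicates 1, 2 and 3 of FORM were left out in turn. The homolog of the nucleolar protein nucleolin (tetur10g00150) had 50.2, 43.9, 45.4 and 40.4 CPM with DEM, against 26.8, 26.9, 25.04 and 28.3 CPM with FORM (FC 1.68). A gene like the large proline-rich protein BAT2 (tetur27g01400) had 158, 168, 163 and 142 CPM with DEM, against 80.3, 96.0, 85.8 and 99.0 CPM with FORM (FC 1.75). An abundant hyaluronan-binding gene (tetur22g01310) had 416, 439.6, 414 and 367 CPM with DEM, against 246, 262, 239 and 266 CPM with FORM (FC 1.61), and it alone of the 5 was called without replicate 1 of DEM. The remaining pair were the nucleolar gene of p130 (tetur03g06070, FC 1.78) and a GYF domain gene (tetur11g03200, FC 1.64).

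The ubiquitin pathway marks proteins for breakdown, and all 3 of its listed genes were called higher, beside 1.66% of all genes. All 3 come from the study's own DEM list, and 2 were called without replicate 1 of DEM and 1 without replicate 3 of FORM. The gene described as a ubiquitin conjugating enzyme 7 interacting protein (tetur20g01480) had 6.21, 4.28, 4.74 and 4.22 CPM with DEM, against 1.44, 1.62, 1.84 and 3.21 CPM with FORM (FC 2.42, adjusted p = 0.00676), and kept its call with any library left out. The ligase gene RNF25 (tetur04g02070) was among the most abundant genes called, with 1491, 1636, 1576 and 1462 CPM with DEM, against 798, 929, 855 and 1038 CPM with FORM (FC 1.70, adjusted p = 0.0217). The homolog of retinoblastoma binding protein 6 (tetur25g01760) had 39.1 to 45.5 CPM with DEM and 25.7 to 28.4 CPM with FORM (FC 1.58).

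Spider mites spin silk, whose core proteins are fibroins, and their cuticle is built of chitin and cuticle proteins. Of 21 genes of cuticle, matrix and silk, 6 were called higher and none lower, beside 1.66% of all genes called higher. The 6 are those of the study's own DEM list, and none of the other 15 was called. Without replicate 3 of FORM 3 were called. Those called were 2 fibroin genes, a fibrillar collagen, a chitinase and the genes of Tenectin and Cubilin, an extracellular matrix protein and an uptake receptor. The fibroin gene tetur04g08890 had 4.25, 2.503, 2.73 and 3.32 CPM in DEM mites and 1.26, 1.5004, 1.23 and 1.54 CPM in FORM mites (FC 2.30). Tenectin (tetur02g08240) had 8.43, 10.1, 7.96 and 8.49 CPM with DEM, against 3.28, 5.02, 4.02 and 3.91 CPM with FORM (FC 2.15), and Cubilin (tetur03g04440) 10.3, 8.69, 10.58 and 8.32 CPM with DEM, against 4.89, 4.62, 3.55 and 5.80 CPM with FORM (FC 2.01). These 3 kept their call with any library left out. The summed level of 5 silk and gland marker genes, both fibroin genes among them, was 73.8 to 125 CPM with DEM and 97.7 to 107 CPM with FORM, and the part of gland content in the result was not tested.

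None of the genes described as cuticle proteins was called. The cuticle protein gene tetur12g02060 had 166, 55.5, 70.0 and 60.0 CPM with DEM, so that 1 library was high, against 83.9, 69.4, 60.8 and 99.9 CPM with FORM. The median log2 FC of the list was 0.31, and −0.08 without that library, which turns its direction. The 6 genes called kept positive log2 FC without it, and 4 were called. The orphan secreted protein gene tetur13g00990, possibly a fibroin by its description, differed the other way at an FC of −1.46 (adjusted p = 0.0355, not called), with 20.1 to 26.8 CPM with DEM, 29.3 to 39.2 CPM with FORM and 52.6 to 80.8 CPM in unsprayed mites.

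Among 13 genes of lipid, sugar and purine enzymes, 1 was called higher and 1 lower, beside 1.66% and 0.51% of all genes. The gene of adenylosuccinate lyase (tetur02g09730), which acts in making purines, had 23.0, 17.7, 16.2 and 14.8 CPM with DEM, against 3.97, 3.40, 4.50 and 8.59 CPM with FORM (log2 FC 1.82 ± 0.47 SE, adjusted p = 0.0223). The lowest DEM library was above the highest FORM library, and without replicate 1 of DEM the FC was 3.19 (adjusted p = 0.0728). Mitochondrial malate dehydrogenase (tetur18g01060) had 13.9, 8.76, 8.40 and 13.3 CPM with DEM, against 4.48, 7.62, 4.23 and 6.63 CPM with FORM, and was not called (adjusted p = 0.286). A gustatory receptor gene (tetur01g01400), of the taste receptor family, had 3.92, 3.95, 3.54 and 3.15 CPM with DEM, against 1.84, 1.44, 1.501 and 2.10 CPM with FORM (FC 2.11). It was the one called of 5 chemosensory receptor and channel genes, beside 1.66% of all genes called higher. The gustatory receptor gene lost its call without replicate 1 of DEM (adjusted p = 0.0522) and without replicate 2 or 3 of FORM, and was not called against CON. The gene of a hypothetical protein, tetur34g00420, stood out by level, with 892, 657, 773 and 676 CPM with DEM, against 288, 320.2, 317 and 442 CPM with FORM (FC 2.19), and was named here after its values were seen.

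**Figure D3:**
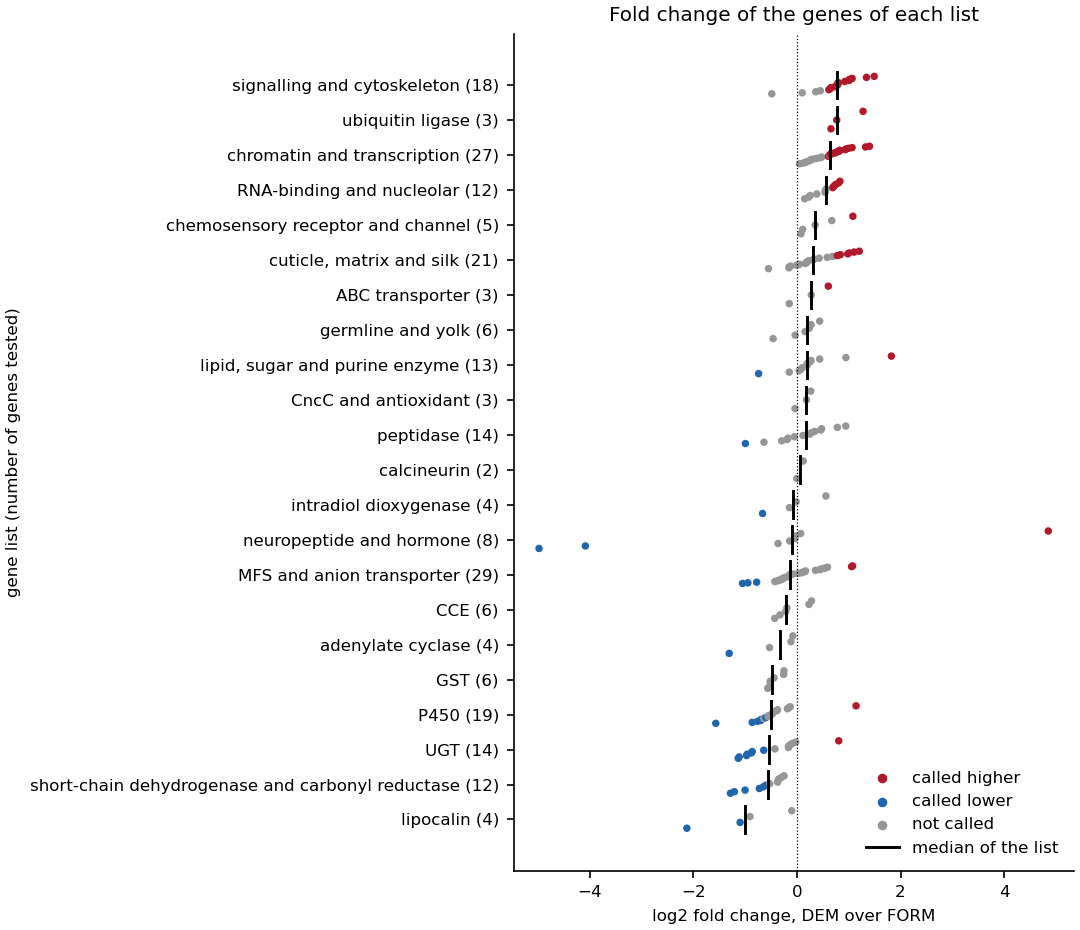
Each point is a gene, placed by its log2 FC of DEM over FORM, in 22 lists ordered by their median (black bar), with the number of genes tested in brackets. Lists of signalling, ubiquitin, chromatin and RNA-binding genes sit at the top with medians of 0.55 to 0.78, and those of GSTs, P450s, UGTs, reductases and lipocalins at the bottom with medians of −0.48 to −1.003.

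Among genes of detoxification, most of those called were lower with DEM. For P450s, the haem enzymes that oxidise toxicants and hormones, 6 of 19 listed genes were called lower and 1 higher, beside 0.51% and 1.66% of all genes. The study's own DEM list holds 5 of them, and of the other 14 genes 2 were called lower and none higher. The median log2 FC of the 19 genes was −0.49, and in 14 genes the DEM libraries lay wholly below the FORM libraries, beside 8.75% of all genes. The mean log2 CPM of the list was 4.57 to 4.79 with DEM and 5.08 to 5.27 with FORM. In the CON libraries it was 5.17, 4.78, 4.44 and 4.92, so that unsprayed mites overlapped the DEM mites. CYP392A3 (tetur07g06460) had 1.24, 1.38, 1.69 and 1.57 CPM in DEM mites and 4.31, 4.04, 4.98 and 4.33 CPM in FORM mites (log2 FC −1.57 ± 0.21 SE, adjusted p = 0.000161). CYP392B3 (tetur20g00290) had 23.4, 19.6, 18.4 and 21.1 CPM with DEM, against 29.6, 34.3, 42.2 and 34.2 CPM with FORM (FC −1.70, adjusted p = 6.87e-05). The gene described by a conserved P450 site (tetur03g09941) had 11.2, 10.5, 10.5 and 14.4 CPM with DEM, against 18.3, 19.4, 17.4 and 20.5 CPM with FORM (FC −1.62). These 3 kept their call with any library left out, and in each the highest DEM library was below the lowest FORM library.

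The other 3 P450 genes called lower were CYP392D2 (tetur03g04990, FC −1.52) and the neighbours CYP385C4v2 (tetur46g00150, −1.82) and CYP385C3v2 (tetur46g00170, −1.62). The last 2 are named as versions of CYP385C4 and CYP385C3 and may share reads with them. Reads that map to more than 1 place were left out of the counts, so their levels are uncertain. CYP392A16 (tetur06g04520), CYP392E8 (tetur27g00350), CYP392E6 (tetur27g00330), CYP392A12 (tetur03g00830), CYP392A11 (tetur03g00970) and CYP392D6 (tetur03g05030) had an adjusted p under 0.05 but a log2 FC of −0.38 to −0.54, short of the threshold. The most abundant of them, CYP392E8, had 1624, 1422, 1540.4 and 1579 CPM with DEM, against 2061, 2129, 2051 and 2162 CPM with FORM (FC −1.36, adjusted p = 0.00607). The gene called higher, tetur21g00560, is described as a probable pseudogene, kept its call in 2 of the 8 fits that left out a library, and had 5.82, 6.59, 8.23 and 6.86 CPM with DEM, against 2.18, 2.31, 3.75 and 4.40 CPM with FORM (FC 2.21).

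For UGTs 7 of 14 listed genes were called lower and 1 higher (median log2 FC −0.53), beside 0.51% and 1.66% of all genes. Without replicate 1 of DEM, and also without replicate 1 of FORM, 4 were called lower. The study's own DEM list holds 4 of the 14 genes, and of the other 10 genes 4 were called lower and none higher. UGT63 (tetur22g00360) had 2.48, 2.04, 2.89 and 1.74 CPM with DEM, against 5.52, 4.04, 6.14 and 4.26 CPM with FORM (log2 FC −1.12 ± 0.18 SE, adjusted p = 0.00131). UGT16 (tetur04g07630) had 4.64, 2.44, 5.13 and 4.56 CPM with DEM, against 7.65, 7.91, 8.46 and 9.22 CPM with FORM (FC −1.96), and UGT09 (tetur02g03300) 24.2, 21.7, 24.97 and 21.9 CPM with DEM, against 39.5, 32.9, 35.8 and 36.7 CPM with FORM (FC −1.56, adjusted p = 0.000161). The groups did not overlap in these 3 genes. UGT69 (tetur22g00510), the lowest by FC at −2.20, had 0.980, 0.790, 0.5998 and 1.01 CPM with DEM, against 2.24, 1.90, 2.18 and 1.05 CPM with FORM, so that a single FORM library came close to the DEM libraries. UGT52 (tetur11g01830) was the one called higher, with 199.7, 160.0, 171 and 166 CPM with DEM, against 116, 84.1, 99.8 and 98.9 CPM with FORM (FC 1.75, adjusted p = 0.00607). UGT63, UGT16, UGT68, UGT09 and UGT52 kept their calls with any library left out.

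Of the UGT genes called lower, 5 lie in a run on scaffold 22 of the gene numbering, UGT63, UGT65, UGT67, UGT68 and UGT69, together with the undescribed gene tetur22g00380. The last had 0.392, 0.461, 0.545 and 0.169 CPM with DEM, against 3.85, 0.750, 1.30 and 1.68 CPM with FORM (FC −4.82). UGT66 (tetur22g00440), which lies in the same run, was not called, with 19.7, 14.8, 14.01 and 14.5 CPM with DEM and 18.6, 17.7, 17.2 and 15.3 CPM with FORM (FC −1.10, adjusted p = 0.572). Genes of such runs can be near copies, and reads shared between copies were not counted. Within 5 positions of another gene called lower lay 17 of the 65 genes called lower (26.2%), against 2.97% of all genes tested. For genes called higher, 37 of 212 (17.5%) had such a neighbour called higher, against 10.5% of all genes tested.

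Reductases were called in the same direction. Short-chain dehydrogenases and carbonyl and aldo-keto reductases turn carbonyl groups into alcohols, and 6 of their 12 genes were called lower and none higher, beside 0.51% of all genes called lower. The number was 2 without replicate 1 of DEM and 3 without replicate 2 of DEM. The study's own DEM list holds 3 of the 12 genes, and of the other 9 genes 3 were called lower. All 12 had a negative log2 FC (median −0.57). The run tetur06g04940, tetur06g04960 and tetur06g04970 had FC of −2.005, −2.31 and −2.44. The last had 5.16, 7.38, 13.5 and 13.8 CPM in DEM mites, with replicates 1 and 2 below 3 and 4, and 14.9, 33.7, 22.4 and 27.2 CPM in FORM mites. The 3 lost their calls without replicate 1 of DEM (adjusted p = 0.0538, 0.121 and 0.0531). An aldo-keto reductase (tetur02g11530) had 68.5, 49.3, 57.5 and 50.3 CPM with DEM, against 97.7, 87.8, 92.4 and 95.5 CPM with FORM (FC −1.66, adjusted p = 0.000139), and kept its call with any library left out. The aldo-keto reductase tetur30g00660 had 78.5 to 90.7 CPM with DEM and 121 to 139 CPM with FORM (FC −1.52, adjusted p = 0.000328).

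GSTs, the enzymes that use GSH, had none of the 6 listed genes called with all libraries, though 2 were called lower without replicate 4 of DEM and 1 without replicate 3 of FORM. The GSH level itself is not part of these data. Their log2 FC were all negative (median −0.48), and 4 had an adjusted p under 0.05 at an FC under the threshold. The delta-class gene tetur26g01490 had 297, 282, 298 and 334 CPM with DEM, against 393, 403, 435 and 417 CPM with FORM (FC −1.36, adjusted p = 0.0019). The delta-class genes tetur26g01450 and tetur01g02500 had FC of −1.43 (adjusted p = 0.0019) and −1.43 (adjusted p = 0.00305). The mu-class gene tetur05g05190 had 64.8, 69.0, 71.0 and 74.9 CPM with DEM, against 100.2, 105, 98.0 and 110.3 CPM with FORM (FC −1.48, adjusted p = 0.0118). In these 4 genes every DEM library was below every FORM library, as in 8.75% of all genes, and also in tetur01g02480 (113 to 129 CPM with DEM and 136 to 149 CPM with FORM, adjusted p = 0.0671). The sixth gene, tetur29g00220, had 30.2 to 34.1 CPM with DEM and 33.9 to 40.9 CPM with FORM with overlap (adjusted p = 0.219). Without replicate 1 of DEM the adjusted p of the 4 genes ran from 0.00612 to 0.0403. The mean log2 CPM of the GST list was 6.52 to 6.66 with DEM and 6.96 to 7.04 with FORM. In the CON libraries it was 6.92, 6.70, 6.76 and 6.98. All CON libraries were above every DEM library, and all but the last were below every FORM library. No GST gene was called against CON.

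The 2 CncC orthologs and a superoxide dismutase, which removes superoxide, were not called. CncC tetur07g06850 had 87.9, 79.6, 74.1 and 73.8 CPM with DEM, against 74.7, 72.4, 63.8 and 66.6 CPM with FORM (FC 1.14, adjusted p = 0.0859). CncC tetur07g04600 had 13.3, 11.9, 11.6 and 11.5 CPM with DEM, against 10.7, 10.7, 8.39 and 10.3 CPM with FORM (FC 1.20, adjusted p = 0.0596). The groups overlapped in tetur07g06850 and not in tetur07g04600. Superoxide dismutase (tetur02g11180) had 262, 263, 255 and 288 CPM with DEM, against 277, 259, 276 and 284 CPM with FORM (FC −1.03, adjusted p = 0.753). None of the 6 listed carboxyl/cholinesterase (CCE) genes was called either, with log2 FC of −0.43 to 0.28. Of 3 listed ABC transporter genes of class C, 1 was called higher, beside 1.66% of all genes. This gene, tetur14g02320, had 11.6, 10.01, 11.5 and 9.22 CPM with DEM, against 6.38, 6.52, 7.71 and 7.26 CPM with FORM (FC 1.52). It was not called without replicate 1 or 3 of DEM or replicate 1 or 2 of FORM, nor against CON.

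Lipocalins bind small lipophilic molecules, and 2 of their 4 genes were called lower, both with any library left out, beside 0.51% of all genes. Both come from the study's own DEM list, and neither of the other 2 was called. The apolipoprotein D-like gene tetur16g03460 had 0.980, 1.05, 0.981 and 1.46 CPM in DEM mites and 5.46, 3.69, 4.02 and 6.63 CPM in FORM mites (log2 FC −2.13 ± 0.43 SE, adjusted p = 0.00839). The related gene tetur06g03090 had 4.77, 4.48, 2.84 and 3.77 CPM with DEM, against 6.73, 6.12, 9.35 and 11.8 CPM with FORM (FC −2.14, adjusted p = 0.00547). A further one, tetur16g03410, had 4.25, 4.02, 4.03 and 7.37 CPM with DEM, against 10.64, 6.46, 8.60 and 11.5 CPM with FORM, and with replicate 4 of DEM inside the FORM range it was not called (adjusted p = 0.0831).

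Transporters of the MFS and anion families went both ways, with 2 of 29 called higher and 3 lower, beside 1.66% and 0.51% of all genes. Without replicate 1 of DEM 1 was called higher and 2 lower. The study's own DEM list holds 4 of the 29 genes, and of the other 25 genes 1 was called lower and none higher. The gene described as rCG19957-like (tetur01g06580) had the smallest adjusted p of all genes tested, 3.38e-06, with 19.3, 14.1, 15.3 and 15.02 CPM with DEM, against 6.96, 7.10, 8.32 and 7.96 CPM with FORM (FC 2.10, with an SE of 0.11 on the log2 scale). The study's text calls it a putative sodium-dependent glucose transporter and the sole gene found higher with every synergist, so its rise is not particular to DEM. A phosphate transporter-like gene (tetur11g02480) had 15.6, 9.09, 7.14 and 8.83 CPM with DEM, against 5.29, 4.56, 4.91 and 4.68 CPM with FORM (FC 2.08), and was not called without replicate 1 of DEM, its highest library (adjusted p = 0.0702). The MFS gene tetur04g02440 had 58.0, 44.3, 56.2 and 55.9 CPM with DEM, against 91.4, 92.0, 101 and 83.7 CPM with FORM (FC −1.72). MFS gene tetur13g03400 had 28.4, 22.3, 33.6 and 38.1 CPM with DEM, against 88.7, 51.8, 42.0 and 53.8 CPM with FORM (FC −1.93). In both genes every DEM library was below every FORM library. A sialin-like gene (tetur08g06370) had 2.55, 1.51, 2.40 and 1.86 CPM with DEM, against 4.31, 4.56, 3.62 and 4.82 CPM with FORM (FC −2.07, adjusted p = 0.0011). In unsprayed mites this gene was at 2.19, 1.85, 2.08 and 1.81 CPM, so that the DEM libraries overlapped the unsprayed ones and the log2 FC against CON was 0.07.

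Other genes called lower were an adenylate cyclase, a serine protease, regucalcin and an intradiol dioxygenase. The adenylate cyclase gene tetur30g01490, of the enzymes that make cyclic AMP, had 1.31, 1.91, 1.85 and 1.52 CPM with DEM, against 3.91, 4.79, 3.89 and 3.77 CPM with FORM (FC −2.48, adjusted p = 0.0133). The serine protease gene tetur07g03160 had 2.55, 3.42, 3.11 and 2.47 CPM with DEM, against 5.98, 6.46, 4.98 and 5.59 CPM with FORM (FC −1.996), and regucalcin (tetur04g05790), a calcium-binding protein, 6.99, 6.39, 6.27 and 6.35 CPM with DEM, against 11.04, 9.69, 10.8 and 12.01 CPM with FORM (FC −1.67). These 3 kept their call with any library left out. The intradiol dioxygenase gene tetur13g04550, of an enzyme family that opens aromatic rings, had 228, 159.5, 169.8 and 181 CPM with DEM, against 244, 275, 294 and 359 CPM with FORM (FC −1.59), and lost its call in each of the 8 fits that left out a library. It was the only one of 4 such genes called, beside 0.51% of all genes called lower. Besides the serine protease, the 13 other peptidase genes, mostly cathepsins, gave no call, nor did the 6 yolk and germline genes or the 2 calcineurin subunits tested.

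Without replicate 1 of DEM most calls were lost, although the genes called kept their direction. In that fit 96 genes were called, 0.748% of 12828, of which 61 (0.476%) were higher and 35 (0.273%) lower. Of the 277 genes called with all libraries 86 remained, and all 277 kept the sign of their log2 FC. The sign was close to fixed in advance. The genes were chosen on these libraries, and in 257 of them the groups do not overlap, so 1 library can hardly turn it. The size of the change was nearly the same, with a median ratio of 0.95 between the log2 FC without and with that library. Of the 191 genes that lost their call, 137 still had an FC of at least 1.5, and 153 had an adjusted p under 0.1. The median adjusted p of the 191 was 0.0744. The P450 list went to 4 genes called lower and none higher, the UGT list to 4 and 1, the reductase list to 2 and 0, and the lipocalin list kept both.

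**Figure D4:**
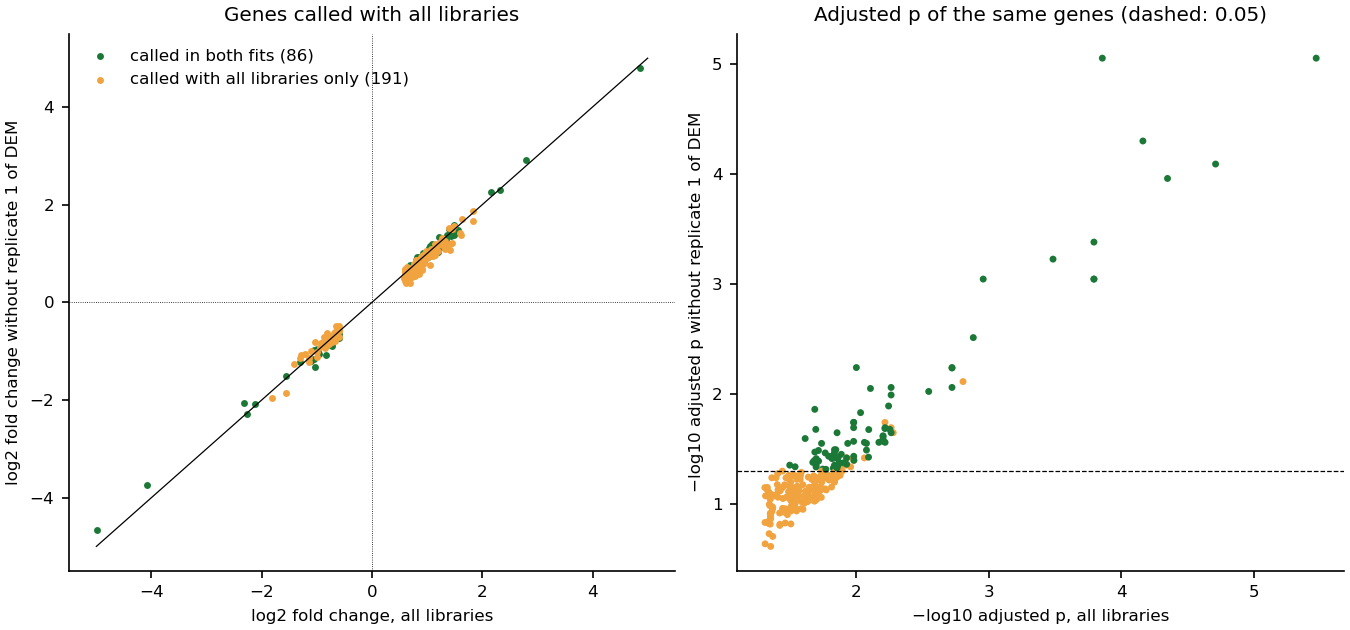
The 277 genes called with all libraries, by log2 FC (left) and −log10 adjusted p (right), with all libraries on the x axes and without replicate 1 of DEM on the y axes. The log2 FC lie along the diagonal, while the 191 genes in orange lost their call, most of them by falling below the dashed line at an adjusted p of 0.05.

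This library was not alone in weighing on the count. Leaving out replicate 4 of DEM gave 361 genes, leaving out replicate 1 of FORM gave 138 and leaving out its replicate 3 gave 85. In every one of the 8 fits all 277 genes kept their sign, which their choice on the same libraries made likely beforehand. Replicate 1 of DEM was the highest DEM library in 110 of the 212 genes called higher, and replicate 4 the lowest in 104. In a fit of the DEM and FORM libraries alone 308 genes were called, and without replicate 1 of DEM 315 (244 higher, 71 lower), so that there the count did not drop. The last of these fits was chosen after seeing the data. In all, 52 genes (33 higher, 19 lower) were called with all libraries and in each of the 8 fits, and 37 of them have a description.

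**Figure D5:**
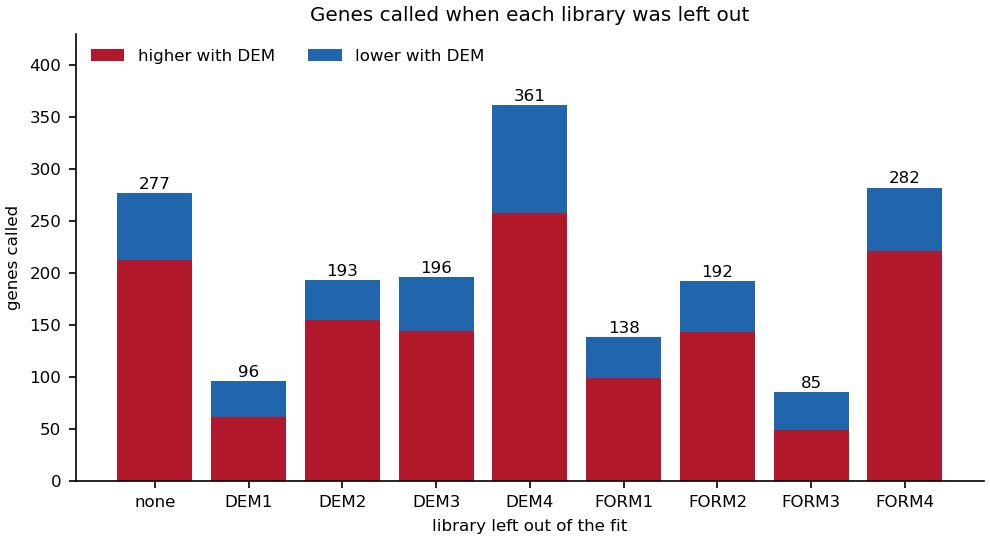
Number of genes called higher (red) and lower (blue) with DEM, in the fit of all libraries (none) and in the 8 fits that each left out the library named on the x axis. The totals lie between 85 and 361, with 96 without replicate 1 of DEM.

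Against unsprayed mites in place of FORM, 193 genes (1.52%) were higher with DEM and 129 (1.01%) lower. Both comparisons use the same DEM libraries. Of the 277 genes, 274 had the same sign against CON, 129 were also called, and the median ratio of the log2 FC was 0.805. Of the 52 genes called in every fit that left out a library, 32 were called against CON too. In the signalling list 10 of the 14 genes called higher were called against both controls, in the chromatin list 6 of 15, in the RNA-binding list 0 of 5, in the UGT list 7 of 8 and in the P450 list 3 of 7. For the reductases it was 3 of 6. In nejire, for instance, the CON libraries had 51.1, 51.0, 44.2 and 42.1 CPM, below every DEM library and above or within the range of the FORM libraries.

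The mean log2 CPM of the 212 genes called higher was 2.72 to 2.94 in the DEM libraries, 1.87 to 2.08 in FORM and 2.15 to 2.19 in CON. Mites treated with the other synergists of the series had 1.61 to 1.70 (piperonyl butoxide), 1.75 to 2.25 (the esterase inhibitor DEF) and 1.89 to 2.91 (cyclosporin A, CsA). For the 65 genes called lower the mean was 1.82 to 2.02 in the DEM libraries, 2.81 to 2.93 in FORM and 2.67 to 2.88 in CON. It was 2.97 to 3.13 with piperonyl butoxide, 2.81 to 2.88 with DEF and 2.36 to 2.48 with CsA. The genes were chosen on the DEM and FORM libraries, so these levels are a description. By their medians the CsA libraries were the ones nearest to DEM in both sets. In the higher genes the median over libraries was 2.70 with CsA, against 2.82 with DEM, 1.94 with FORM and 2.16 with CON. The CsA range there spanned from the FORM to the DEM level. In the lower genes the median was 2.41 with CsA, against 1.87 with DEM and 2.87 with FORM. Averaged over the set, the raised level of the higher genes was thus not particular to DEM.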

How the data were processed

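Pools of whole adult females gave 24 RNA-seq libraries in 6 groups of 4 by their labels, and the DEM and FORM groups were compared. Following the study's methods and the submitters' notes, reads were checked (FastQC 0.11.4), aligned to the *T. urticae* genome (STAR 2.5.0a), sorted (SAMtools 0.1.19) and counted by strand over exons (HTSeq 0.6.0), without reads of several places. The values deposited by the authors are raw counts of 19087 genes, of which 1831 had no read. None of the gene IDs matched the reference table at hand, so that lengths, positions and sequences are not given.

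In edgeR 4.0.16 (R 4.3.3), genes were filtered by filterByExpr, scaled by TMM and fitted by a robust quasi-likelihood model to all 24 libraries, as 6 groups with a shared spread (biological coefficient of variation 9.80%). P-values were adjusted by Benjamini-Hochberg over all 12736 genes. For log2 CPM the prior count was 2. The steps were tested on simulated data. Libraries of a group differed by more than sampling noise (chi-square of at least 3.47 for each degree of freedom), so none was taken for a copy.

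Named were the 10 highest and 10 lowest log2 FC among genes called without overlap, the genes called in each list (at most the 4 with the largest change), and the CncC, superoxide dismutase and GST genes. Other named genes were chosen after their values were seen, and the members and lists with earlier results of these data known. Alternatives were DESeq2 1.42.0, limma-voom (limma 3.58.1), other size factors, other filters, other controls, only 2 groups, a replicate block, other criteria for a call, and leaving out each library.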

Additional observations from a re-analysis of the deposited data

Results flagged for a closer look

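A library counted as far from its group when its gap to the nearest other library took most of the group's range (Dixon's test at 95%). Of 132 sets of 4 values examined in 66 named genes, 7 were so, and chance alone gives about 1 in 20. In replicate 1 of DEM the undescribed gene tetur05g01720 had 0.0653 CPM, against 0.281 to 0.329 CPM in the other DEM libraries, and the helix-loop-helix gene tetur04g05450 had 10.8 CPM, against 8.15 to 8.56 CPM. UGT16 (tetur04g07630) had 2.44 CPM in replicate 2 of DEM, against 4.56 to 5.13 CPM in the other DEM libraries.

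Among FORM libraries, the pancreatic hormone-like gene tetur04g09491 was at 0 CPM in replicate 1 and at 0.0577 to 0.0698 CPM in the others. The FORM libraries held 3 counts of this gene in sum, so that this gap is a matter of single reads. The adenylate cyclase gene tetur30g01490 had 4.79 CPM in replicate 2, against 3.77 to 3.91 CPM. UGT68 (tetur22g00480) had 2.76 CPM in replicate 1, against 1.77 to 1.85 CPM. The CncC ortholog tetur07g04600 had 8.39 CPM in replicate 3, against 10.3 to 10.7 CPM.

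Of the measures per library, replicate 1 of DEM was far from the other DEM libraries in the share of its most abundant gene (7.69%), in its deviation from the others (0.392 on the log2 scale), in the number of genes at least 2-fold outside the other 7 libraries (41) and in its score on the second principal component (16.1, against −15.8 to −11.0). That component held 22.2% of the variance of the 8 libraries, and the FORM libraries lay at −1.28 to 17.9 on it. Replicate 4 of FORM was far from the other FORM libraries in its deviation (0.291, against 0.256 to 0.259).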

How the results depend on the processing

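The count of 277 genes called (212 higher, 65 lower) was within 1.5 times of the main value with DESeq2 (259), limma-voom (268), DESeq2 size factors (274), no filter (245), at least 10 counts in every library (222), the DEM and FORM libraries alone (308, and 315 without replicate 1 of DEM), CON as control (322) and CON and FORM pooled (384). The lower genes numbered 129 with CON as control and 105 with the pooled control, where the controls themselves were changed. By the adjusted p alone 1405 genes were called (810 higher, 595 lower). A test against an FC of 1.5 called 6 (3 higher, 3 lower), a stricter question by construction. With single libraries left out, the total ran from 85 to 361, the higher genes from 49 to 258 and the lower genes from 35 to 103, in fits with fewer samples. Of the 277 genes, 47 were not called by DESeq2, 41 of them because it gave no adjusted p.

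With the replicate number as a block 311 genes were called (231 higher, 80 lower), and 271 of the 277 remained. Same-numbered DEM and FORM libraries deviated from their group means with correlations across genes of 0.022, 0.129, 0.135 and −0.169. Replicates 2 and 3 of DEM correlated best with the FORM library of their own number, and replicates 1 and 4 did not. Deviations within a group depend on each other, so these values cannot decide whether the numbers pair the samples. The labels do not say. Over 66 named genes and all alternatives, 1081 of 1301 log2 FC kept their direction and their side of the threshold, 212 were no longer called, 7 were newly called and 1 turned, the sialin-like gene tetur08g06370 with CON as control (0.0704). Depth limits the result for genes under about 1 CPM, where single reads move the level. Near-identical copies lose shared reads, and GC content and length were not examined.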

Other observations

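Replicate 1 of DEM and replicate 4 of FORM departed from their groups in part in the same genes. Over the 12736 genes (genes are no independent replicates), the deviations of these 2 libraries from their group means had a Pearson r of 0.395, whereas the other 15 pairs of a DEM and a FORM library had r between −0.246 and 0.153. The genes farthest above in replicate 1 of DEM included 2 abundant undescribed genes that neighbour each other in number. The gene tetur18g03020 had 1961 CPM there, 289 to 336 CPM in replicates 2 to 4 of DEM, 808 CPM in replicate 4 of FORM and 387 to 486 CPM in the other FORM libraries. The gene tetur18g03030 had 10444 CPM there, 2323 to 2461 CPM in replicates 2 to 4 of DEM, 5071 CPM in replicate 4 of FORM and 2682 to 3343 CPM in the other FORM libraries. Neither was called between DEM and FORM.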
